A study of Mus musculus with 2 samples.

Results

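Of 1483 ISL1 binding peaks called in mouse sinoatrial node cells, 359 (24.2%) lay between genes and more than 150 kb from the nearest annotated transcription start site (TSS). These gene-desert peaks were every row that the authors' annotation calls intergenic and whose deposited distance to the nearest TSS is larger than 150 kb on either side, and they made up 45.0% of the 798 intergenic peaks. The remaining 439 intergenic peaks, at or under 150 kb, are called nearer peaks here. Chromatin came from the sinoatrial node of mice on the ICR background carrying the Hcn4-H2BGFP reporter, taken between postnatal days 1 and 3, and GFP-positive cells were sorted before immunoprecipitation with an antibody against ISL1. The study held 1 ISL1 library and 1 library of input DNA with the same genotype, strain, age and sort. Both were fixed with 1% formaldehyde for 10 min and with a second crosslinker, DSG, at 2 mM for 30 min. Their fragments were 100 to 400 bp. The peak list belongs to the ISL1 library, and the input library is not analysed here as a sample of its own. There was no replicate, so no test between groups was made. All intervals below are exact 95% binomial intervals, which cover counting error only and treat peaks as independent, although peaks of the same desert share their place. The sorted population is defined by Hcn4 reporter activity, and a peak list carries no expression values with which to check its markers. How many mice were pooled is not given in the sources used here.

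ISL1 is a LIM-homeodomain transcription factor that marks cardiac progenitors of the second heart field and stays on in the pacemaker cells of the sinoatrial node after most of the heart has lost it. Hcn4 encodes the main pacemaker channel of these cells. Gene deserts are long stretches of the genome without genes; several of them flank developmental regulators and hold enhancers that act over long distances. A nearest gene is therefore only a label of position, and it need not be the gene on which a bound site acts.

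MicroRNA genes were the nearest gene to 13 of 359 desert peaks and to 5 of 439 nearer peaks. Their share among all peaks was not counted, so no difference between the classes is drawn from these counts. Mir6341, Mir6411 and Mir1907 had 2 desert peaks each. The 13 peaks were divided among 10 microRNA genes, and 8 of these had mature sequences in the RefSeq table (assembly GRCm38.p6). The conserved members are shown because 2 of them, on different chromosomes, encode one and the same mature 5p product. Capitals mark the seed, bases 2 to 8 from the 5′ end, through which a microRNA recognises its targets.
miR-125b-5p (Mir125b-1 and Mir125b-2): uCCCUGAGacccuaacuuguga
miR-181a-5p (Mir181a-1): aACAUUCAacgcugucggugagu
miR-135a-5p (Mir135a-2): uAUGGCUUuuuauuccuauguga
The desert peak nearest to Mir125b-2 lay on chromosome 16 at 77909264 to 77909408 (mm9), 263 kb downstream of its start, between the protein-coding genes Usp25 and Cxadr, and scored 21.9. The peak nearest to Mir125b-1 lay on chromosome 9 at 41544112 to 41544256, 154 kb downstream, between Ubash3b and Sorl1, and scored 15.1. Both copies of miR-125b thus had 1 desert peak, each on the downstream side. Mir181a-1 had 1 peak of score 15.1 at 312 kb upstream, in the gap between Nr5a2 and Ptprc. Mir135a-2 had 1 peak of score 12.3 at 213 kb downstream. The highest score beside a microRNA gene was 32.8, for the peak nearest to Mir6378 on chromosome 3 at 35124390 to 35124534. That peak lay 303 kb upstream of Mir6378, and the protein-coding genes bordering its desert were Sox2, a transcription factor of stem and neural progenitor cells, and Atp11b.

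Desert and nearer peaks had the same median score. The score is the authors' own value for each peak, and its deposited values step in units of 1.37. The median score was 15.1 (interval 13.7 to 15.1) in the 359 desert peaks and 15.1 (13.7 to 15.1) in the 439 nearer peaks, with the same quartiles, 12.3 and 17.8, in both. Desert scores ran from 9.58 to 52.0 and nearer scores from 8.21 to 52.0. Among desert peaks 107 (29.8%, 25.1 to 34.8) reached 17.8, the 75th percentile of the whole list, as did 129 nearer peaks (29.4%, 25.2 to 33.9), beside 29.4% of all peaks. Scores over 30 were given to 16 desert peaks (4.46%, 2.57 to 7.14) and to 17 nearer peaks (3.87%, 2.27 to 6.13), beside 3.51% of all peaks. The desert and nearer peaks thus overlapped over nearly their whole range.

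**Figure D1:**
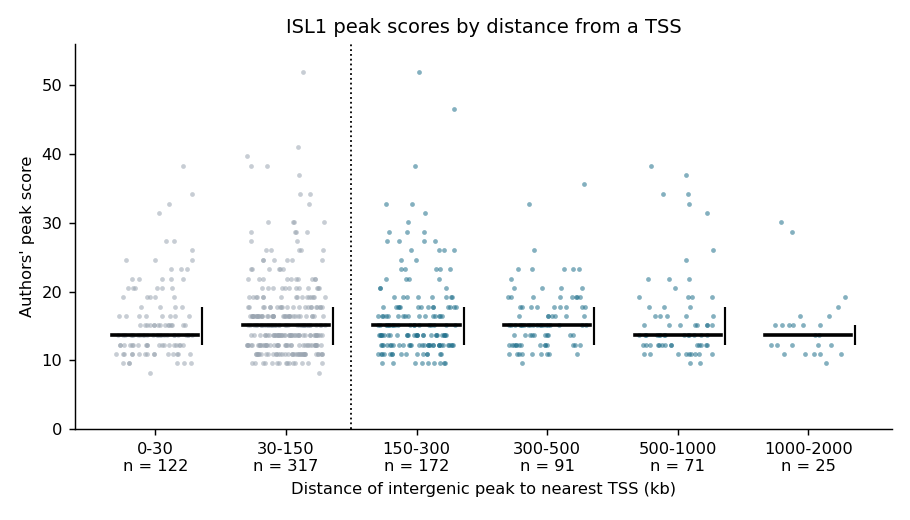
Authors' peak score (y axis) of each intergenic peak (points) by distance class (x axis, kb), with the median as a thick bar, the quartiles as a thin line and a dotted line at the 150 kb limit. Medians are 13.7 or 15.1 in all 6 classes, and the points of the desert classes (blue) overlap those of the nearer ones (grey).

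Scores varied little with distance beyond 150 kb. The median distance of a desert peak was 313 kb, with quartiles of 210 and 521 kb. The median score was 15.1 at 150 to 300 kb (172 peaks), 15.1 at 300 to 500 kb (91 peaks), 13.7 at 500 to 1000 kb (71 peaks) and 13.7 beyond 1000 kb (25 peaks). The share reaching 17.8 was 16.0% (4 of 25, 4.54 to 36.1) beyond 1000 kb and 31.4% (24.5 to 38.9) at 150 to 300 kb, so the intervals overlapped. At the 150 kb limit itself the peaks just inside were nearest to Gm13483 (151 kb, score 9.58), Angpt1 (152 kb, 16.4) and Nabp1 (153 kb, 9.58). Those just outside were nearest to Kcnj2 (149 kb, 12.3), Nr2f2 (149 kb, 17.8) and Golim4 (149 kb, 39.7). The focus ratio, the deposited fraction describing how concentrated the reads of a peak are, had a median of 0.727 (0.706 to 0.737) in desert peaks and 0.737 (0.727 to 0.75) in nearer peaks.

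The strongest desert peak lay downstream of Pdgfc, which encodes a platelet-derived growth factor. It covered chromosome 3 at 81032205 to 81032349, scored 52.0 and stood 192 kb from the Pdgfc start, in the gap between Pdgfc and Ctso. Further out in the same gap were peaks of 21.9 at 286 kb and 15.1 at 351 kb. The strongest peak belonged to a run of 3 over 23.1 kb, of 17.8, 24.6 and 52.0, with only 1 desert peak. All 3 intergenic peaks of the gap were desert peaks, so the others of the run were not intergenic peaks of this gap. The 192 kb is counted from the start and contains the length of Pdgfc, so the distance to the end of the gene is not given. The next peak by score, 46.5, was nearest to the noncoding gene 3830408C21Rik between Kif2a and Zswim6, and it was also the highest peak on an annotated repeat, an LTR80B element. A score of 38.3 was given to a peak 715 kb downstream of Tle1, a Groucho-family corepressor. The same score belonged to a peak nearest to the noncoding gene Gm6260, in the desert that ends at Lmo4, a LIM-only transcriptional cofactor. Epm2a, which encodes laforin, had a peak of 36.9 at 584 kb downstream, in the gap before Utrn. Of the 16 desert peaks above 30, 9 were nearest to a noncoding gene. That is 10.0% (4.68 to 18.1) of the 90 desert peaks nearest to noncoding genes, against 2.68% (1.08 to 5.45) of the 261 nearest to protein-coding genes. The intervals overlapped slightly, and the medians were 15.1 in both.

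Most of the nearest genes had a single desert peak, and a smaller set had 3 or more. The 359 peaks had 227 nearest genes, of which 158 had a single desert peak. The 28 genes with 3 or more held 119 desert peaks (33.1%), whereas the nearer peaks had 365 nearest genes, of which 8 had 3 or more and together held 26 peaks (5.92%). The share held by such genes was not counted over all peaks. The counts are not corrected for the length of the gaps. A wide gap collects more peaks by its length alone, and the part of gap length was not tested. Taking the protein-coding genes on either side as borders placed 335 of the 359 peaks in 179 deserts. Of these deserts 106 held 1 peak, 73 held 2 or more, and 11 held 5 or more. Peaks of those 11 deserts numbered 77. For the 44 deserts whose 2 border starts could both be read from deposited distances, the width from start to start was 356 to 3556 kb, with a median of 1205 kb.

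Among the 3 deserts with 10 peaks each, scores ranged differently. Between Zfp608, a zinc finger gene, and Gramd3 on chromosome 18, the peaks scored 28.7, 17.8, 23.3, 21.9, 32.8, 21.9, 23.3, 17.8, 15.1 and 12.3 in genomic order, and 8 of the 10 reached 17.8. Between Zeb2 and Acvr2a on chromosome 2 they scored 10.9 to 20.5, and 1 of 10 reached 17.8. Zeb2 is a zinc finger repressor of epithelial genes and Acvr2a an activin receptor; all 10 peaks were nearest to 1700019E08Rik, a gene within the gap. Between Slc10a2 and Efnb2 on chromosome 8 they scored 9.58 to 15.1, and 0 of 10 reached 17.8. The scores of the first and the last of these deserts overlapped only between 12.3 and 15.1, where the first had 2 peaks. These deserts were singled out by their number of peaks, and the contrast in scores was seen afterwards.

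**Figure D2:**
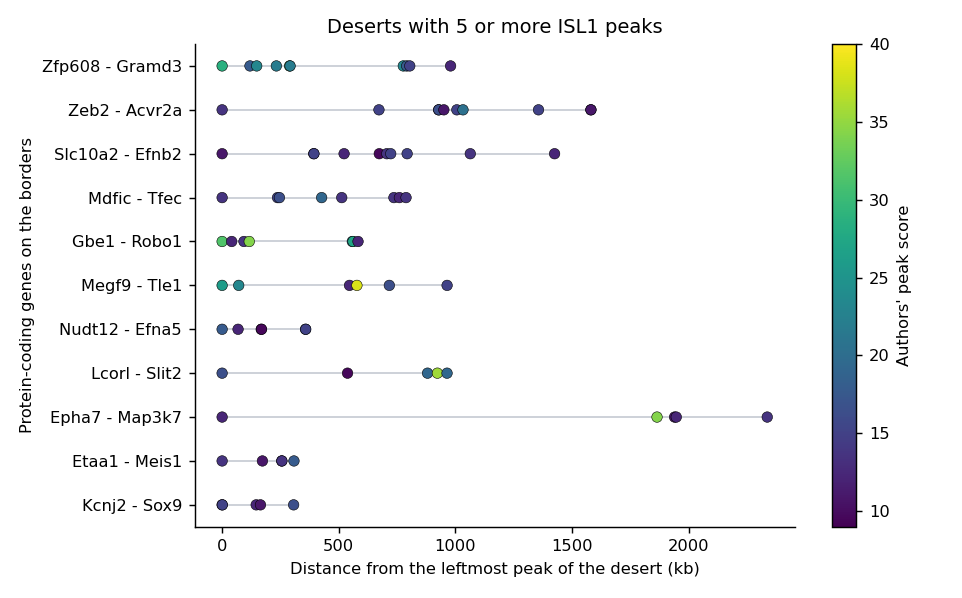
Desert peaks (points, coloured by the authors' score) by distance from the leftmost peak (x axis, kb) in the 11 deserts with 5 or more of them, 1 row per desert named by its protein-coding borders. The row from Zfp608 to Gramd3 holds scores of 12.3 to 32.8, and the row from Slc10a2 to Efnb2 holds none above 15.1.

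Factors of the pacemaker programme stood at the edge of 24 desert peaks. The list held 31 genes, transcription factors known from sinoatrial node and inflow tract development, and 5 of them were the nearest gene of 9 desert peaks (2.51%, 1.15 to 4.71), against 7 genes and 7 nearer peaks (1.59%, 0.643 to 3.26), beside 1.62% of all peaks. Counting protein-coding borders on either side raised this to 12 of the 31 genes and 24 of 335 placed peaks (7.16%, 4.64 to 10.5). For placed nearer peaks it was also 12 genes, with 13 of 388 peaks (3.35%, 1.80 to 5.66), and the intervals overlapped. Meis1 alone bordered 7 of the 24 desert peaks. Border shares of this list were not counted over all peaks or once per gap, and they are not corrected for gap width.

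Isl1 itself bordered a desert with 3 peaks. They lay on chromosome 13, 2 of them upstream of Isl1 at 185 kb (117284406 to 117284550, score 10.9) and 200 kb (117299338 to 117299482, score 15.1). The other was nearest to Parp8, on the far side, and scored 12.3. All 3 scores were at or below the median of 15.1. Shox2, a homeobox gene required for the sinoatrial node, bordered a desert in which 2 peaks on chromosome 3 lay within 66283388 to 66284911. They scored 13.7 and 24.6 and were nearest to Veph1. Tbx3, a T-box repressor that keeps the working-myocardium programme off in the conduction system, shared with Med13l a desert with 1 peak at chromosome 5 119870384 to 119870528, score 15.1.

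Meis1, a TALE homeodomain cofactor, had desert peaks on both of its sides. Toward Etaa1 there were 5, of scores 13.7, 10.9, 13.7, 13.7 and 17.8, with 3 nearest to Meis1 at 432 to 485 kb downstream. Toward Spred2 there were 2, at 17.8 and 27.4, starting at 19250610 and 19250921 on chromosome 11. The orphan nuclear receptor genes Nr2f1 and Nr2f2, both expressed in the atria, bordered 2 and 3 peaks. Those of Nr2f1 scored 17.8 and 12.3, upstream at 673 and 1244 kb. Those of Nr2f2 scored 13.7 and 13.7 in the gap toward Mctp2 and 10.9 in the gap toward Arrdc4. Among the Iroquois genes, 1 peak of 20.5 lay between Irx1 and Irx2, 1 of 13.7 between Irx3 and Irx5, and 2, of 13.7 and 16.4, between Adamts16 and Irx1. Hand2, a heart bHLH factor, bordered 1 peak of 12.3. Of these pacemaker-list peaks, the 2 near Spred2 and Shox2 scoring 27.4 and 24.6 were the highest.

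Developmental transcription factors as a wider list, of 484 genes, were nearest to as large a share of desert peaks as of nearer peaks. They were nearest to 23 desert peaks (6.41%, 4.10 to 9.46; 14 genes) and 28 nearer peaks (6.38%, 4.28 to 9.09; 24 genes), beside 7.62% of all peaks. On either border, gene types of any kind counted, they stood beside 40 of 335 desert peaks (11.9%, 8.67 to 15.9) and 38 of 388 nearer peaks (9.79%, 7.02 to 13.2). With noncoding genes passed over so that only protein-coding genes count as borders, 87 desert peaks (26.0%, 21.4 to 31.0) and 68 nearer peaks (17.5%, 13.9 to 21.7) had such a border. Counting each gap once gave 42 of 179 deserts (23.5%, 17.5 to 30.4) and 51 of 302 nearer gaps (16.9%, 12.8 to 21.6), with overlapping intervals.

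Of the genes on the transcription factor list, Tle1 was nearest to the most desert peaks, all 4 downstream: 12.3 at 747 kb, 38.3 at 715 kb, 16.4 at 576 kb and 15.1 at 329 kb. On its other side, toward Aldoart1, a further pair of desert peaks included a score of 32.8. Its relative Tle4 had 21.9 at 173 kb downstream and 12.3 at 456 kb upstream. Sox11, an SRY-related factor of neural and cardiac progenitors, had 23.3 at 195 kb and 15.1 at 444 kb, both upstream. Gata3, a zinc finger factor, and Dach1, a transcriptional cofactor of organ development, had 1 peak of 17.8 each, at 274 and 658 kb downstream. Etv1, an ETS factor, and Prdm1, a zinc finger repressor, had 1 peak of 12.3 each, at 283 and 212 kb. A further 25 factors were borders without being the nearest gene. Sox9, a factor of cartilage and heart valves, bordered 5 peaks of 10.9 to 16.4 in the desert shared with Kcnj2, where BC006965 was the nearest gene. Nfib bordered 4 peaks, of 23.3, 19.2, 19.2 and 12.3, toward Mpdz.

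Axon guidance genes were nearest to more desert peaks than nearer peaks. Of the 75 genes of the list, 8 were nearest to 30 desert peaks (8.36%, 5.71 to 11.7) and 5 to 7 nearer peaks (1.59%, 0.643 to 3.26), beside 4.05% of all peaks. The intervals did not overlap, but Efnb2, Efna5 and Robo1 alone held 20 of the 30 peaks. With each gap counted once by its protein-coding borders, the list bordered 13 of 179 deserts (7.26%, 3.92 to 12.1). It bordered 11 of 302 nearer gaps (3.64%, 1.83 to 6.42), and the intervals overlapped. None of these shares is corrected for gap width, and its part was not tested. This list too was chosen with earlier results of these data known.

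Among the ligands, Slit2, whose secreted product binds Robo receptors, had 4 peaks, all upstream: 9.58 at 872 kb, 19.2 at 529 kb, 35.6 at 487 kb and 19.2 at 445 kb. The last 3 of these formed a run of 83.7 kb on chromosome 5, 47845401 to 47929090. Efnb2, the ephrin ligand of arterial endothelium, had 9 peaks, all downstream at 469 to 1501 kb and none above 15.1. Efna5, a membrane-anchored ephrin, had 6, all downstream at 419 to 777 kb with scores of 9.58 to 19.2. Sema3a, a secreted semaphorin, had 1 peak of 16.4.

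Among the receptors, Robo1 had 5 peaks: 34.2 at 695 kb, 17.8 at 253 kb, 27.4 at 250 kb and 12.3 at 229 kb upstream, and 15.1 at 569 kb downstream. Its upstream desert, toward Gbe1, held 7 peaks, 4 of which reached 17.8. Robo2, the neighbouring gene on chromosome 16, had 3 peaks upstream: 26.0 at 241 kb, 16.4 at 375 kb and 12.3 at 421 kb. Epha4 and Epha7, ephrin receptors, had 1 peak each, of 15.1 and 12.3. The desert between Epha7 and Map3k7 was among the widest, at 3311 kb from start to start, and held 5 peaks, of 12.3, 34.2, 10.9, 12.3 and 13.7.

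Cell adhesion genes showed the same difference in counts. Of 205 listed genes, 12 were nearest to 22 desert peaks (6.13%, 3.88 to 9.13) and 6 to 6 nearer peaks (1.37%, 0.503 to 2.95), beside 3.1% of all peaks. Each gap counted once, they bordered 25 of 179 deserts (14.0%, 9.25 to 19.9) and 15 of 302 nearer gaps (4.97%, 2.81 to 8.06). These intervals did not overlap, but the list was chosen with earlier results of these data known, so this is not a test. However, a gap counts as a desert only if it can hold a site more than 150 kb from a start. Whether genes of the list flank wide gaps regardless of ISL1 peaks was not tested, and counting each gap once does not correct for width. Cdh11, a mesenchymal cadherin, had 4 peaks, all downstream: 15.1 at 1104 kb, 10.9 at 247 kb, 26.0 at 231 kb and 19.2 at 189 kb, in the gap shared with Cdh8. Flrt2, a membrane protein that binds latrophilins and Unc5 receptors, had 4, all upstream, at 210 to 521 kb and with scores of 10.9 to 23.3. Nlgn1, a neuroligin of excitatory synapses, had the peak farthest from any start, at 1827 kb with a score of 19.2, and further peaks of 16.4 at 1728 kb and 28.7 at 1418 kb. Slitrk1 and Adgrl2, the latter named Lphn2 in the deposited annotation, had 2 peaks each, none above 15.1.

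Signalling ligands and receptors had similar shares in both classes, with overlapping intervals. Of 211 listed genes, 10 were nearest to 15 desert peaks (4.18%, 2.36 to 6.80) and 12 to 15 nearer peaks (3.42%, 1.92 to 5.57), beside 3.51% of all peaks. Besides Pdgfc, the members were Tgfb2, with 1 peak of 28.7 at 224 kb downstream, Jag1, a Notch ligand, with 12.3 and 15.1 upstream, Erbb4, a neuregulin receptor, with 12.3 and 13.7 at 212 kb upstream, and Inhba, an activin subunit, with 12.3 and 13.7 downstream. Bmp2, Angpt1, Cxcl12, Fgf20 and Ntrk3 had 1 peak each, of 13.7 to 17.8.

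The 284 genes of the ion channel list were nearest to 0 desert peaks, which allows a share of up to 1.02%, and to 6 nearer peaks (1.37%, 0.503 to 2.95), beside 0.944% of all peaks. As protein-coding borders they stood beside 8 of 335 desert peaks (2.39%, 1.04 to 4.65) and 15 of 388 nearer peaks (3.87%, 2.18 to 6.30). The 8 desert peaks were bordered by Kcnj2 (5), Atp2b1 (2), which encodes a calcium pump and not a channel, and Gria2 (1). The list does not hold every channel gene: Cngb3, a cyclic nucleotide gated channel subunit outside it, was nearest to 1 desert peak of 15.1 at 344 kb. Lists of markers of other cells in or around the node gave few desert peaks: 0 for working myocardium, endothelium, and fibroblasts and epicardium, and 1 for neurons and glia (Nefm, a neurofilament, 21.9). Nearer peaks counted 2, 2, 4 and 0 for those lists, and all 1483 peaks counted 3, 2, 6 and 1 (0.202%, 0.135%, 0.405% and 0.0674%). The desert counts thus lay near low shares in the whole list. As protein-coding borders, genes of those lists stood beside 6, 0, 0 and 1 of 335 desert peaks. The 6 were bordered by Kcnj2 (5), already counted as a channel, and Gja1 (1). The 1 was bordered by Hand2, which is also on the pacemaker list, so these peaks do not mark a cell type. For 388 nearer peaks the border counts were 2, 1, 10 and 5, and borders were not counted over all peaks. Ribosomal and proteasome genes, 117 in all, were nearest to 0 peaks of either class, beside 2 of all 1483 peaks (0.135%). As protein-coding borders they stood beside 0 of 335 desert peaks and 3 of 388 nearer peaks.

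**Figure D3:**
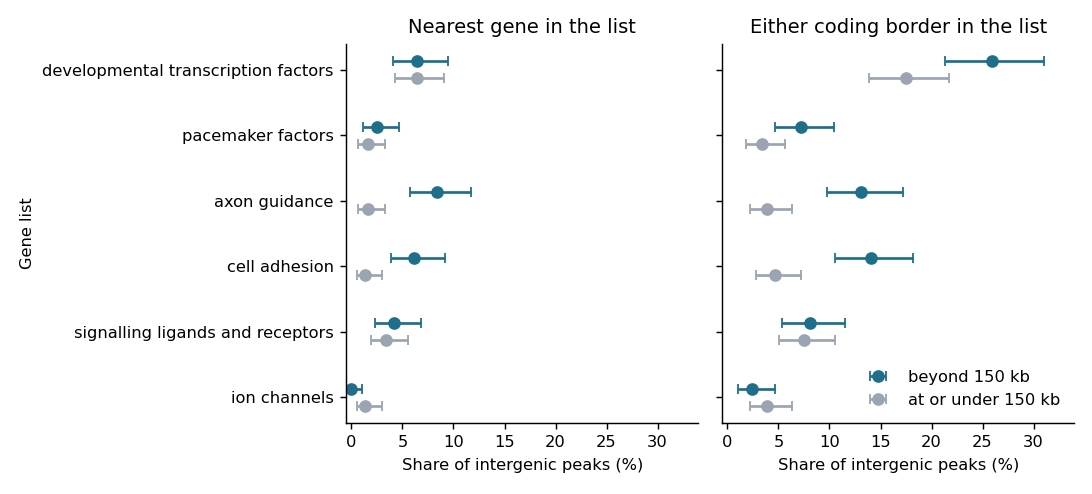
Share of desert (blue) and nearer (grey) peaks (x axis, percent, with exact 95% intervals) whose nearest gene is in each of 6 lists (left) and with a protein-coding border in the list (right). On the left the intervals do not overlap for axon guidance (8.36% against 1.59%) and cell adhesion (6.13% against 1.37%). Developmental transcription factors lie at 6.41% and 6.38%, and no share is corrected for gap width. The lists were chosen with earlier results of these data known.

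The side on which the peaks lay differed from nearer peaks. Desert peaks were upstream of their nearest start in 152 of 359 cases (42.3%, 37.2 to 47.6) and nearer peaks in 273 of 439 (62.2%, 57.5 to 66.7), beside 41.2% of all peaks, which include introns. The share was lower in each class beyond 150 kb than in each class under it: 70.5% under 30 kb, 59.0% at 30 to 150 kb, 44.2% at 150 to 300 kb, 48.4% at 300 to 500 kb, 39.4% at 500 to 1000 kb and 16.0% (4 of 25) beyond 1000 kb. The 25 farthest peaks include several from single gaps, such as those of Efnb2, Nlgn1 and 1700019E08Rik. Downstream distances are counted from the start and so contain the length of the gene itself, which was not subtracted. Upstream desert peaks reached a score of 17.8 in 57 of 152 cases (37.5%, 29.8 to 45.7) and downstream ones in 50 of 207 (24.2%, 18.5 to 30.6), with intervals that overlapped slightly. In nearer peaks the order was the other way, 27.1% (21.9 to 32.8) upstream and 33.1% (26.0 to 40.8) downstream. The desert between Zfp608 and Gramd3, which holds 10 upstream peaks, counts in the first share.

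**Figure D4:**
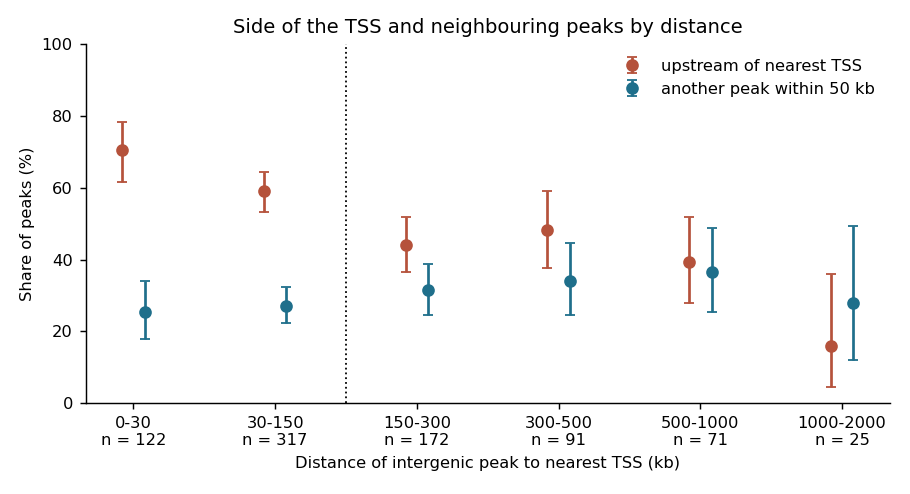
Share of intergenic peaks (y axis, percent, with exact 95% intervals) upstream of the nearest TSS (red) and with another peak within 50 kb (blue), by distance class (x axis, kb), with a dotted line at the 150 kb limit. The upstream share is 70.5% under 30 kb and 16.0% beyond 1000 kb.

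At a distance of 50 kb most desert peaks had no neighbour. Within 200 kb 52.9% had another peak, near the 48.3% of nearer, 51.4% of intronic and 50.0% of all peaks. Another peak of the list lay within 50 kb of 118 desert peaks (32.9%, 28.0 to 38.0), of 117 nearer peaks (26.7%, 22.6 to 31.1) and of 29.8% of intronic peaks, beside 29.1% of all peaks. Some of these were pairs less than 1 kb apart, 12 pairs with 24 desert peaks. With peaks that close merged, the shares were 27.4% (95 of 347) and 23.3% (100 of 429). The median gap to the next peak was 172 kb in deserts and 212 kb among nearer peaks. Chains of peaks no more than 50 kb apart numbered 56 with at least 1 desert peak, 44 of them with 2 peaks and 12 with 3, and none was longer. The strongest desert peak, beside Pdgfc, formed a triplet of 17.8, 24.6 and 52.0 over 23.1 kb. Among triplets made of desert peaks only, the one upstream of Slit2 reached the highest score, followed by the triplet upstream of Robo1 (17.8, 27.4 and 12.3 over 24.6 kb).

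Repeats held a smaller share of desert than of nearer peaks, with overlapping intervals: 28 of 359 (7.80%, 5.25 to 11.1) against 53 of 439 (12.1%, 9.18 to 15.5), beside 7.82% of all peaks. The desert ones were 12 LTR, 10 LINE, 4 SINE and 2 DNA elements. By chromosome, 36 desert peaks lay on chromosome 4, where they were 60.0% of the intergenic peaks (46.5 to 72.4), 32 on chromosome 8 (56.1%, 42.4 to 69.3) and 4 on chromosome 9 (18.2%, 5.19 to 40.3). The X chromosome held 2.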

How the data were processed

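The authors' peak list was used as deposited; per the submitters' processing notes reads were aligned with Bowtie to mm9 and peaks handled with HOMER, with versions and settings not given in the sources used here. Each peak of 144 bp carries a score and a focus ratio (a fraction of 0 to 1), both deposited by the authors per the file headers. Coordinates, annotation, nearest gene and signed distance are also the deposited ones. All 1483 peaks come from 1 library, whose read depth is not given in the sources used here. If 1 step of 1.37 in the score stands for 1 read, which no header states, the median desert peak rests on 11 reads (95% Poisson interval 5.49 to 19.7).

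Shares, quantiles and exact intervals were computed in Python 3.11.15 (pandas 2.3.3, scipy 1.17.1, numpy 2.4.6, matplotlib 3.10.9) and tested on simulated data. Gene types, strand and gene order were read from the RefSeq table (GRCm38.p6), with no coordinates taken from it; 226 of 227 nearest genes matched. The side of a peak came from strand, or from peaks sharing a promoter, and the 2 sources gave the same side in 205 of 205 checks; 24 peaks were not placed. The members and the 12 gene lists were chosen with earlier results of these data known. Named genes are those of the 10 highest and 5 farthest peaks, the 10 with the most peaks, the pacemaker list, up to 12 transcription factors and 5 of each other list, and their bordering partners; others were named after their values were seen. Some results under this rule, and the blood list, are not reported here. Alternatives were other distance limits, grouping distances, score minima and borders. Sequences of the peaks are not shown here, as no mm9 genome was used.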

Additional observations from a re-analysis of the deposited data

How the results depend on the processing

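With 1 library no replicate could be left out. No paired analysis was possible because each group is 1 library and no result comes from a test. Of 63 alternatives, 52 kept a share or a difference of medians inside the interval of the reported value, or the number of desert peaks within 1.5 times of it. The other 11 moved it further. Shares and counts have no sign to reverse, and the reported difference in median score was 0. A reversal could therefore be recorded only for the difference in median focus ratio, and 0 were recorded. The difference in median score between desert and nearer peaks was 0 under every alternative run. The number of desert peaks was 455 at a limit of 100 kb, 282 at 200 kb and 187 at 300 kb, and keeping peaks at or above the median score left 190. By construction the latter raised the share reaching the 75th percentile to 56.32%, and the 90th percentile was reached by 11.98%. The share with another peak nearby was 13.37% within 10 kb, 40.95% within 100 kb, 52.92% within 200 kb, 22.11% among peaks at or above the median score and 27.38% with peaks within 1 kb merged; the counting distance or the number of peaks sets each of these. A developmental transcription factor on either border was counted for 25.97% of peaks with protein-coding borders only and for 23.46% of deserts counted once, an alternative chosen after seeing the data; passing over noncoding genes widens the gaps. The step size of the score, and not a known read depth, limits how finely peaks can be ranked.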
